A study of Mus musculus with 8 samples.

Results

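The LanC-like (LANCL) proteins and the enzymes of glutathione metabolism were described in embryonic mouse dorsal cortex as 9 genes: the family members Lancl1, Lancl2 and Lancl3, the glutathione synthesis genes Gclc, Gclm and Gss, the recycling gene Gsr, and the glutathione peroxidases Gpx1 and Gpx4. They were matched by gene symbol among the 23284 genes of each count file. All 9 were found, and all 9 passed the filter on low counts that 14696 genes passed. The group was selected on the CPM of Lancl1 in these libraries, which was lower in those labelled ErbB4 KO, so the difference in Lancl1 is given as a description with no test, and only the other 8 genes were tested.

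The series compared E15.5 dorsal cortex of WT (ErbB4+/+) and ErbB4 KO (ErbB4-/-) C57BL/6 embryos by RNA-seq, with 4 libraries of each genotype. The labels give no treatment, the meninges and ganglionic eminences had been dissected away, and each genotype was kept as its own homozygous colony, so genotype and colony cannot be told apart. The ErbB4 KO mice carry a transgene under the alpha-MHC promoter that restores ErbB4 in the heart. The labels do not say whether the 4 libraries of a genotype came from separate litters, so the p-values measure only the spread between these libraries. ErbB4 is a receptor tyrosine kinase for neuregulins.

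Glutathione is the main small thiol of animal cells. Glutamate-cysteine ligase, made of a catalytic subunit (Gclc) and a modifier subunit (Gclm), joins glutamate to cysteine in the rate-limiting step, and glutathione synthetase (Gss) adds glycine. Glutathione peroxidases use glutathione to reduce peroxides, and glutathione reductase (Gsr) restores the oxidized form with NADPH. The LANCL proteins are mammalian relatives of the bacterial lanthionine cyclases. They hold a zinc ion and bind glutathione, and Lancl1, which is abundant in brain, has been linked to the protection of neurons from oxidative stress.

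The zinc ion of the LANCL proteins is held by 2 cysteines and the histidine that follows the second of them. The coding sequence around these residues is shown because it is the part that marks the 3 genes as 1 family, and because reads can be assigned to single members only where such stretches differ. In the lines below, taken from the GENCODE vM1 transcripts of NCBIM37 (mm9) and written 5′ to 3′ on the coding strand, capitals mark the codons of the zinc ligands.
Lancl1, first cysteine: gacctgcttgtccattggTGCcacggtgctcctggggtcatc
Lancl2, first cysteine: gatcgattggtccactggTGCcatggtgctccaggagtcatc
Lancl3, first cysteine: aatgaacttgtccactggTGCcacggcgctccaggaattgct
Lancl1, second cysteine and histidine: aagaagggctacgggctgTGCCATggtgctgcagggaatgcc
Lancl2, second cysteine and histidine: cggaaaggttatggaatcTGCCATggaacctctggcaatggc
Lancl3, second cysteine and histidine: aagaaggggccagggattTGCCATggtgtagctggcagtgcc
The Lancl1 stretches are codons around 276 and 322, in exons 6 and 7 of 9, at chr1:67053466-67053507 and chr1:67051427-67051468 on the minus strand. Those of Lancl2 lie around codons 321 and 367, in exons 6 and 7 of 9, at chr6:57676528-57676569 and chr6:57682262-57682303 on the plus strand. In Lancl3 the first stretch, around codon 294, is split between exons 3 and 4 of 5 (chrX:8828512-8828545 and chrX:8835072-8835079, plus strand), and the second, around codon 340, lies in exon 4 (chrX:8835176-8835217). All 3 genes shared 25 of the 42 bases at the first site and 23 of 42 at the second.

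Over the whole coding sequence, Lancl1 (1200 nt) and Lancl2 (1353 nt) were identical at 63.1% of aligned bases, Lancl1 and Lancl3 (1263 nt) at 57.1%, and Lancl2 and Lancl3 at 56.4%. Reads of 50 nt separate sequences this different. Of the 50-nt windows along the Lancl1, Lancl2 and Lancl3 transcripts, only 0.453%, 1.1% and 0.381% had an exact copy elsewhere on the chromosomes of mm9.

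Gpx1 and Gpx4 are selenoproteins: a TGA codon inside their reading frame, which elsewhere means stop, is read as selenocysteine, the residue that reacts with peroxide. That codon, in capitals, is codon 47 of Gpx1 (exon 1 of 2, chr9:108241764-108241805, plus strand) and codon 73 of the Gpx4 transcript used here (exon 3 of 7, chr10:79517464-79517505, plus strand).
Gpx1, selenocysteine: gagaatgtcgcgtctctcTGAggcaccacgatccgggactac
Gpx4, selenocysteine: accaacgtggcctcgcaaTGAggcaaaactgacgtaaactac
These 42-base stretches shared 24 bases. The genes differed in how well a read can be placed. Only 0.376% of the 50-nt windows of Gpx1 had an exact copy elsewhere in mm9, against 69.8% (635 of 910) for Gpx4. How reads that match several places were counted is not given in the sources used here, but the near-identical adult globin genes hold 1 count in all 8 libraries together. The Gpx4 level is therefore uncertain, more so beside other genes than between libraries. For Gclc, Gclm, Gss and Gsr the share was 1.13% to 2.25%.

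Depth ranged from 28205703 to 48871480 counts per library. Among the WT-labelled libraries, replicate 1 stood apart: it lay far from the other 7 libraries on the first principal component (30.6% of the variance). Its log2 levels, less each gene's mean over the 8 libraries, fell with transcript length (Spearman rho -0.58 over 14253 genes). The same measure gave 0.0378 to 0.223 in the others, whose values share that mean with replicate 1. Xist, expressed from the inactive X chromosome, was at 983 to 1687 CPM (read counts relative to library size, TMM-scaled) in WT replicates 1 to 3 but at 3.48 in WT replicate 4 and 2.70 to 3.82 in the KO-labelled libraries, and Y-linked Ddx3y ran the other way. WT replicate 4 is thus the only WT-labelled library that shares the X and Y pattern of the KO-labelled ones. Erbb4 itself was at 8.99, 19.9, 25.3 and 19.2 CPM in the WT-labelled libraries and 20.9, 24.6, 20.7 and 23.5 in the KO-labelled ones (log2 fold change 0.28, SE 0.23, adjusted p = 0.812 by edgeR), with 0.06 without WT replicate 1 and 0.48 without WT replicate 3. Counts over the whole gene thus do not show the deletion, and directions below are those of the labels.

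Lancl1 (ENSMUSG00000026000.10, chr1:67047091-67085446, minus strand) was at 116, 99.8, 101 and 102 CPM in WT replicates 1 to 4 and at 78.4, 78, 76.5 and 76.9 CPM in KO replicates 1 to 4. The lowest WT-labelled library stood above the highest KO-labelled one, and the KO-labelled libraries lay closer together (77.5 ± 0.902, SD, n = 4) than the WT-labelled ones (105 ± 7.47, SD, n = 4), of which replicate 1 was the highest. The log2 fold change was -0.43 (SE 0.059), a change of -25.9%, from 2422 to 3864 reads per library. WT replicate 4, the only WT library without Xist expression, was at the level of WT replicates 2 and 3, and against it alone the KO-labelled libraries gave a log2 ratio of -0.40. Without WT replicate 1 the fold change was -0.38.

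Lancl2 (chr6:57652595-57689432, plus strand) did not follow Lancl1. It was at 127, 129, 110 and 111 CPM in WT replicates 1 to 4 and at 159, 142, 114 and 111 CPM in KO replicates 1 to 4. KO replicates 1 and 2 stood above every WT-labelled library, whereas KO replicates 3 and 4 lay within the WT range. This gave a log2 fold change of 0.14 (SE 0.11, 95% interval -0.10 to 0.38, adjusted p = 0.81), and without KO replicate 1 it was 0.04. Vopp1, on the opposite strand, overlaps Lancl2, and the libraries were not strand-specific, so reads of the overlap cannot be told apart.

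Lancl3 (chrX:8777028-8845211, plus strand) was the least abundant of the family, at 10.6, 16.5, 13.4 and 13 CPM in the WT-labelled libraries and 15.8, 16.6, 18.1 and 11.6 in the KO-labelled ones. Both genotypes held high and low libraries and their ranges overlapped. Its log2 fold change was 0.22 (SE 0.15, 95% interval -0.11 to 0.55, adjusted p = 0.81). Without WT replicate 1 it was 0.12 and without WT replicate 2 it was 0.33. Lancl3 is X-linked and Xist differed between the groups as given above. The fold change was 0.27 with Xist as a covariate. Against WT replicate 4, the only WT-labelled library without Xist expression, the KO-labelled libraries gave a log2 ratio of 0.25.

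Scaled to the length of each gene's exon model, Lancl2 was the most abundant family member in all 8 libraries, followed by Lancl1 and Lancl3. Lancl1 made up 36.3%, 31.9%, 35.8% and 35.9% of the summed family level in WT replicates 1 to 4, and 23.4%, 25.1%, 28.4% and 29.8% in KO replicates 1 to 4. The ratio of Lancl2 to Lancl1 (CPM) was accordingly 1.09 to 1.3 in the WT-labelled libraries and 1.45 to 2.03 in the KO-labelled ones. These follow from the choice of Lancl1 and were not tested. The summed family level itself overlapped between genotypes, at 63.1 to 71.5 CPM per kb in WT-labelled and 57.8 to 75.3 in KO-labelled libraries, with KO replicate 1 the highest and KO replicate 4 the lowest of all 8.

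**Figure D1:**
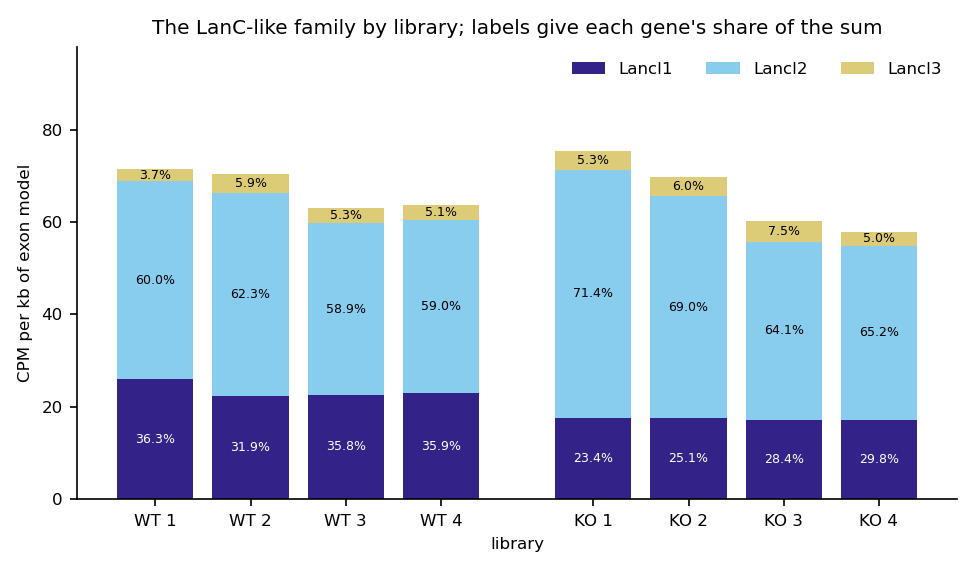
Bars give the summed level of Lancl1, Lancl2 and Lancl3 in each library in CPM per kb of exon model, with each gene's share of the sum as a label. The Lancl1 segment is 31.9% to 36.3% of the bar in the WT-labelled libraries and 23.4% to 29.8% in the KO-labelled ones, while the height of the bars overlaps between genotypes.

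Of the 8 members other than Lancl1, 0 passed the adjusted threshold of 0.05 in edgeR's quasi-likelihood test, beside 4 of all 14696 genes (0.0272%) in either direction and 3 (0.0204%) lower in KO-labelled libraries. At an unadjusted p under 0.05 there was 1, Gss, beside 5.53% of all genes, and none of the 8 was called by DESeq2 or limma-voom. The genotypes did not overlap for 1 of the 8, again Gss, beside 3.34% of all genes in either direction and 1.48% lower in KO-labelled libraries.

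**Figure D2:**
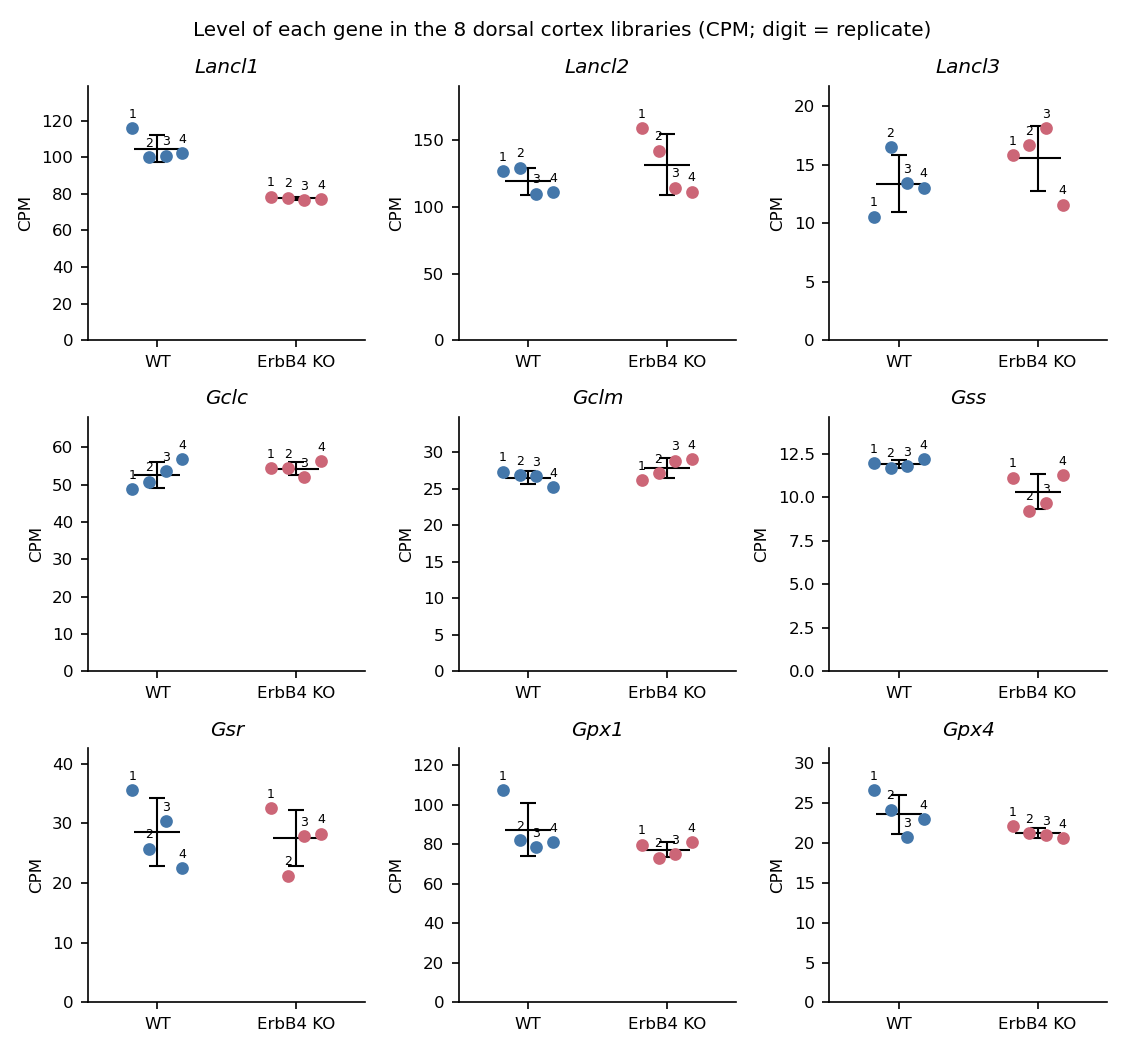
Each panel gives 1 gene's CPM in the 4 WT-labelled and 4 KO-labelled libraries (points, numbered by replicate) with the mean and SD (bars), on axes that start at 0. Lancl1 and Gss are the only genes of the 9 whose genotypes do not overlap, and WT replicate 1 is the highest library for Lancl1, Gsr, Gpx1 and Gpx4.

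Both subunits of glutamate-cysteine ligase had levels that overlapped between genotypes. Gclc (chr9:77602342-77642292, plus strand) was at 48.8, 50.8, 53.6 and 56.8 CPM in the WT-labelled libraries and 54.4, 54.5, 52.0 and 56.4 in the KO-labelled ones (log2 fold change 0.05, SE 0.063, 95% interval -0.09 to 0.19, adjusted p = 0.866 by edgeR), and -0.06 with Xist as a covariate. Gclm (chr3:121948475-121972902, plus strand) was at 27.4, 26.9, 26.7 and 25.2 CPM against 26.2, 27.1, 28.8 and 29.0 (log2 fold change 0.07, SE 0.067, 95% interval -0.08 to 0.21, adjusted p = 0.833). Every KO-labelled library lay within the WT range for Gclc, and KO replicates 3 and 4 lay above it for Gclm. The intervals leave room for a log2 fold change of up to 0.19 in Gclc and 0.21 in Gclm. With 1 library left out, Gclc ran from 0.02 (without WT replicate 1) to 0.09 (without WT replicate 4) and Gclm from 0.04 (without KO replicate 4) to 0.10 (without KO replicate 1), and Gclm was at 0.14 with Xist as a covariate. Per kb of exon model, the catalytic subunit was 2.68 to 3.39 times the modifier subunit in the WT-labelled libraries and 2.71 to 3.12 times in the KO-labelled ones.

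Gss (chr2:155388917-155418546, minus strand), which completes glutathione, was at 12, 11.7, 11.8 and 12.2 CPM in the WT-labelled libraries, a narrow range, and at 11.1, 9.25, 9.68 and 11.3 in the KO-labelled ones. All KO-labelled libraries were below all WT-labelled ones, with KO replicates 2 and 3 the lowest. The log2 fold change was -0.21 (SE 0.091, 95% interval -0.41 to -0.01), with an unadjusted p of 0.0432 and an adjusted p of 0.81 by edgeR, so it did not pass the test over all genes. It kept its direction in every alternative run (-0.25 to -0.16). Acss2, on the opposite strand, overlaps Gss.

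Gsr (chr8:34762995-34808635, plus strand), the reductase, varied widely within each genotype (coefficient of variation 19.9% in WT-labelled libraries, the largest of the 9, and 17% in KO-labelled ones, below Lancl3 at 18% and Lancl2 at 17.3%), at 35.5, 25.8, 30.3 and 22.5 CPM in the WT-labelled libraries and 32.6, 21.2, 27.9 and 28.3 in the KO-labelled ones. High and low libraries occurred in both genotypes. Its log2 fold change was -0.05 (SE 0.15, 95% interval -0.38 to 0.28, adjusted p = 0.95 by edgeR) and turned to 0.07 without WT replicate 1, to 0.05 without KO replicate 2 and to 0.26 with Xist as a covariate.

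Gpx1 (chr9:108241607-108242671, plus strand), the general cytosolic peroxidase, was at 107, 82.1, 78.4 and 81.1 CPM in the WT-labelled libraries and 79.8, 73.3, 75.0 and 81.0 in the KO-labelled ones. WT replicate 1 stood alone, and the other 7 libraries lay between 73.3 and 82.1 CPM. The log2 fold change was -0.17 (SE 0.094, 95% interval -0.38 to 0.03, adjusted p = 0.81 by edgeR), and -0.06 without WT replicate 1. The Gpx1 transcript is 847 nt long, shorter than all but 3.36% of the genes placed on mm9. WT replicate 1 is the library whose levels, less each gene's mean, fell with length. That library differed from the mean of the other WT-labelled ones by 0.41 on the log2 scale for Gpx1 and 0.24 for Gpx4. In order of length, the difference was 0.12 for Lancl2 (35.1st percentile), 0.45 for Gsr (38.7th) and 0.0099 for Gss (51.8th). It was -0.14 for Gclc (55.3rd), -0.43 for Lancl3 (66th), 0.20 for Lancl1 (73.7th) and 0.059 for Gclm (78.5th). The part of length in these differences was not tested. Red blood cells are rich in the Gpx1 enzyme. Of 11 red blood cell markers, 5 were tested. Their summed CPM was 33.1 to 57.6 in the WT-labelled libraries, highest in replicate 1, and 23.1 to 36.3 in the KO-labelled ones. Hba-a1, Hba-a2 and Hbb-b2 were at 0. The embryonic globins Hbb-y (-1.72, SE 0.45, unadjusted p 0.00271, adjusted p = 0.81 by edgeR) and Hba-x (-1.23, SE 0.31, unadjusted p 0.00221, adjusted p = 0.74) were below 0, whereas Alas2 was at 0.21 and Slc4a1 at 0.11. With the length trend removed the Gpx1 fold change was -0.07. It was -0.10 with Xist as a covariate. Against WT replicate 4, the only WT-labelled library without Xist expression, the KO-labelled libraries gave a log2 ratio of -0.07. The part of red blood cells was not tested.

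Gpx4 (chr10:79509911-79519184, plus strand), which reduces lipid peroxides in membranes and blocks ferroptosis, was at 26.6, 24.2, 20.7 and 23.0 CPM in the WT-labelled libraries and 22.1, 21.2, 21.0 and 20.6 in the KO-labelled ones. WT replicate 3 lay among the KO-labelled libraries and the other WT-labelled ones above them. Its log2 fold change was -0.15 (SE 0.084, 95% interval -0.34 to 0.03, adjusted p = 0.81 by edgeR), -0.09 without WT replicate 1 and -0.07 with the length trend removed. Its longest transcript, of 995 nt, is also short.

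**Figure D3:**
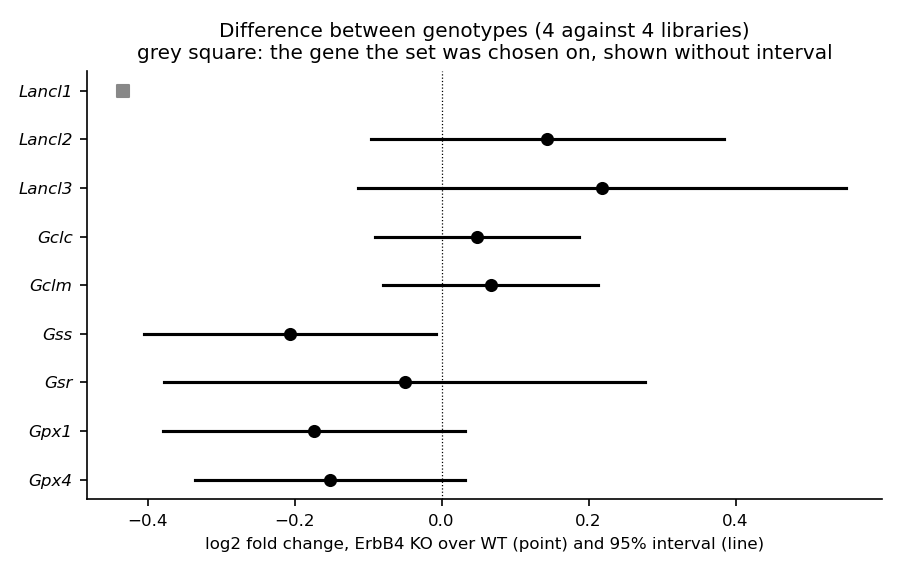
Points give the log2 fold change of KO-labelled over WT-labelled libraries for each gene, and lines its 95% interval from the edgeR fit of 4 against 4 libraries. Lancl1 (grey square, -0.43) is drawn without an interval because it chose the set. Of the other genes, Gss alone has an interval that excludes 0 before adjustment.

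Per kb of exon model, the order of mean levels was the same in both genotypes: Gpx1 (103 ± 15.9 CPM per kb in WT, SD, n = 4), Lancl2 (40.4 ± 3.46), Lancl1 (23.4 ± 1.68), Gclc (15.3 ± 1.02), Gpx4 (14.1 ± 1.47), Gsr (10.4 ± 2.06), Gclm (5.17 ± 0.183), Lancl3 (3.35 ± 0.606) and Gss (2.08 ± 0.0371). In the WT-labelled libraries the ranges of Gclc and Gpx4 overlapped, as did those of Gpx4 and Gsr, so these neighbours were not separated. All other neighbours were. In the KO-labelled libraries no ranges of neighbours overlapped, and Lancl1 (17.1 to 17.6) came close to Gclc (15.2 to 16.5), from which it was well apart in WT (22.4 to 25.9 against 14.3 to 16.6). The place of Gpx4 is uncertain for the reason given above. The exon models of Gss (5726 nt) and Gpx4 (1675 nt) are also longer than their longest transcripts (3258 and 995 nt). Their places therefore depend on the length used for scaling.

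Lancl1 lies 993 kb from Erbb4 on chromosome 1, and the genes within 1 Mb of Lancl1 were read as neighbours. Of these 21 annotated genes, 8 were in the count files and 6 were tested, and 0 passed the threshold. Erbb4 was the only tested gene on its side of Lancl1, and no gene between Lancl1 and Erbb4 was tested. Acadl, a mitochondrial fatty acid dehydrogenase gene 137 kb from Lancl1 on the side away from Erbb4, was at 17.8 to 20.9 CPM in WT-labelled and 15.7 to 17.6 in KO-labelled libraries without overlap (log2 fold change -0.19, SE 0.08, unadjusted p 0.0333, adjusted p = 0.81 by edgeR). Over all genes, 1.48% were lower without overlap and 5.53% had an unadjusted p under 0.05. Rpe, a pentose phosphate epimerase gene 281 kb away, had -0.16 (SE 0.072, unadjusted p 0.052 by edgeR) with overlapping ranges. Unc80 (0.22), Mtap2 (0.03), 1110028C15Rik (-0.01) and Erbb4 (0.28) did not pass either. Cps1, the closest gene on the side of Erbb4, held 58 reads in all and was not tested.

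The genes whose log2 CPM followed Lancl1 most closely over the 8 libraries were Agpat6 (Pearson r 0.974), Apobr (0.955), Ndst3 (0.955), Alad (0.947) and Ecd (0.941). All of these are on other chromosomes. Part of this likeness may be the difference between genotypes that Lancl1 was chosen for. Ndst3, which modifies heparan sulfate, had a log2 fold change of -0.69 and Apobr, a lipoprotein receptor gene, -0.995. Those of Agpat6 (-0.05), Ecd (-0.06) and Alad (-0.20) were smaller. After the mean of each genotype was subtracted, the closest genes were Sdhb (0.997), Tprgl (0.997), Atp5e (0.994), Tbcb (0.993) and Uqcr10 (0.993). Sdhb, Atp5e and Uqcr10 encode parts of the mitochondrial respiratory chain and ATP synthase. Among the members, Gpx1 (r 0.92) and Gpx4 (0.76) were closest to Lancl1 by this measure. The 8 points share the libraries, of which WT replicate 1 is far from the rest. It was above the mean of the other WT-labelled libraries by 0.20 for Lancl1, 0.41 for Gpx1, 0.24 for Gpx4 and 0.45 for Gsr on the log2 scale. In the 7 libraries without it, r with Lancl1 was 0.023 for Gpx1 and 0.189 for Gpx4, and 0.857 to 0.943 for the 5 closest genes, which had been picked with it included.

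Around the members, 123 genes of the wider glutathione and thiol system were read as 10 lists, and 105 of them passed the filter. None (0 of 105) passed the adjusted threshold in either direction by edgeR (0.0272% of all genes), DESeq2 (0.138% of all genes) or limma-voom. At an unadjusted p under 0.05 there were 3 higher and 3 lower in KO-labelled libraries, 5.71% of the genes beside 5.53% of all genes. The genotypes did not overlap for 4 of the 105 (Slc1a1, Cbs, Gsto2 and Sod2), all higher in KO-labelled libraries. Over all genes the share without overlap was 3.34% in either direction. The median log2 fold change was -0.02 (all genes -0.0022), and 93.3% lay within 0.3 of 0 beside 91.8% of all genes. Of the 105, 66 (62.9%) had a fold change below 0 beside 50.8% of all genes, but without WT replicate 1 this was 49 (46.7% beside 50.7%), and with the length trend removed 50 (47.6% beside 49.8%). Of the 39 pathway genes named below by rule, 25 had a fold change that turned or moved by over 1.5 times without WT replicate 1 and 30 without at least 1 of the 8 libraries in turn.

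Cysteine supply, glutathione breakdown and export (16 tested) held the gene with the smallest p. Slc1a1, a neuronal glutamate transporter that also takes up cysteine, was at 43.5, 51.4, 46.9 and 51.7 CPM in the WT-labelled libraries and 61.8, 59.9, 61.6 and 53.0 in the KO-labelled ones. KO replicate 4 came close to the WT range and the other KO-labelled libraries stood clear of it. For Slc1a1 the log2 fold change was 0.29 (SE 0.076), with an unadjusted p of 0.00267 and an adjusted p of 0.81 by edgeR (0.137 to 1.0 over the alternatives). Cbs, the first enzyme of transsulfuration, which makes cysteine from homocysteine, was at 11 to 12.4 CPM against 12.6 to 13.7, also without overlap (0.20, SE 0.08, unadjusted p 0.0272, adjusted p = 0.81). Ggt5 (0.41), Cndp2 (-0.12) and Lap3 (-0.08), which cleave glutathione or its peptide products, did not pass. Ggt5 was at only 1.64 CPM on average in WT-labelled and 2.18 in KO-labelled libraries. Slc7a11, the cystine transporter, was at 10.6 to 13 CPM in all 8 libraries (-0.02, SE 0.089).

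The glutathione S-transferases (17 tested of 25) split into 9 below and 8 above 0 with a median of -0.004, but only 2 were below 0 without WT replicate 1 (median 0.10), 3 with the length trend removed (0.08) and 4 without KO replicate 4 (0.04). Gsto2 (0.54, SE 0.33) and Ptges (0.31, SE 0.16) had the highest values, at mean levels under 3 CPM in each genotype. Gsto1 (-0.19) and Gstm7 (-0.10) had the lowest. Many of these genes have close copies, so their counts may be incomplete. The other glutathione peroxidases were Gpx7 (-0.17, SE 0.14), Gpx3 (-0.13, SE 0.12) and Gpx8 (-0.01, SE 0.12), while Gpx2, Gpx5 and Gpx6 had too few reads. Gpx3, the secreted form, was at 5.59 to 8.20 CPM. In glutathione-dependent detoxification, which clears methylglyoxal and formaldehyde, all 5 genes tested had values below 0, from Ethe1 (-0.13) and Esd (-0.13) to Glo1 (-0.01) and Hagh (-0.003), beside 50.8% of all genes, and none passed. Without WT replicate 1, 3 of the 5 were below 0 and the median went from -0.09 to -4e-04.

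Thioredoxins, glutaredoxins and peroxiredoxins, the parallel thiol system, had 13 of 17 values below 0 (76.5% beside 50.8% of all genes) and a median of -0.10. Without WT replicate 1 these were 10 of 17 (58.8% beside 50.7%) and -0.02. Their summed level was 2244 CPM in WT replicate 1 and 1731 to 1812 in the KO-labelled libraries, with the lowest WT-labelled library at 1744. Glrx2, the mitochondrial glutaredoxin, was at 65.1 to 81.1 CPM against 60.6 to 70.2 (-0.18, SE 0.081, unadjusted p 0.0451, adjusted p = 0.81 by edgeR), Txnrd2 had -0.20 (SE 0.11), and Txnrd3 (0.09) and Txnip (0.03) were the highest. Among superoxide and hydrogen peroxide genes, Sod2, the mitochondrial manganese enzyme, was steady at 71.4 to 72.4 CPM in WT-labelled and 73.9 to 76.5 in KO-labelled libraries, without overlap but with a log2 fold change of only 0.06 (SE 0.049). Sod1 (-0.14), its partner chaperone Ccs (-0.12) and Sod3 (0.55, under 1 CPM on average) did not pass. Without WT replicate 1, Sod1 was at -0.03 and Ccs at -0.03, and without KO replicate 1 Sod3 was at 0.23.

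NADPH supply, which feeds Gsr, had 11 of 16 values below 0 (68.8% beside 50.8% of all genes) and a median of -0.08, which was -0.02 without WT replicate 1. Idh2, which makes NADPH in mitochondria, was at 132 to 148 CPM in WT-labelled and 116 to 133 in KO-labelled libraries (-0.15, SE 0.06, unadjusted p 0.0237, adjusted p = 0.81 by edgeR). Mthfd2 had -0.19 (SE 0.084, unadjusted p 0.0458 by edgeR), Me3 0.50 (SE 0.22, unadjusted p 0.0392) and Aldh1l2 0.13 (SE 0.091). The mean level of Me3 was only 2.18 CPM in WT-labelled and 3.06 in KO-labelled libraries. The regulators of the antioxidant response showed values near 0: Nfe2l2, which encodes the factor NRF2, was at 13.3 to 16.1 CPM in all libraries (-0.08, SE 0.08), and its inhibitor Keap1 had -0.08 (SE 0.062). Their target Nqo1 (0.53, SE 0.27) and the small Maf genes Mafg (0.13) and Maff (-0.21) did not pass. Nqo1 was at 0.816 CPM on average in WT-labelled and 1.19 in KO-labelled libraries, and its fold change was 0.28 without KO replicate 3.

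Selenoprotein synthesis, on which Gpx1 and Gpx4 depend, had 7 of 8 values below 0 beside 50.8% of all genes, and 5 of 8 without WT replicate 1. It was led by Pstk (-0.23, SE 0.13) and Scly (-0.23, SE 0.12), with Sepsecs at 0.13 and Eefsec at -0.02. In lipid peroxidation and ferroptosis (9 tested), Ftl1, the ferritin light chain, had -0.17 (SE 0.092) and Ncoa4 -0.11, against Alox12 at 0.50 (SE 0.56) and Aifm2 at 0.08. With 1 library left out, Alox12 ran from 0.10 (without WT replicate 4) to 1.1 (without WT replicate 1) and Aifm2 from 0.01 to 0.19. Over all alternatives the highest value of Alox12 was 3.25. Its mean level was only 0.311 CPM in WT-labelled and 0.425 in KO-labelled libraries.

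**Figure D4:**
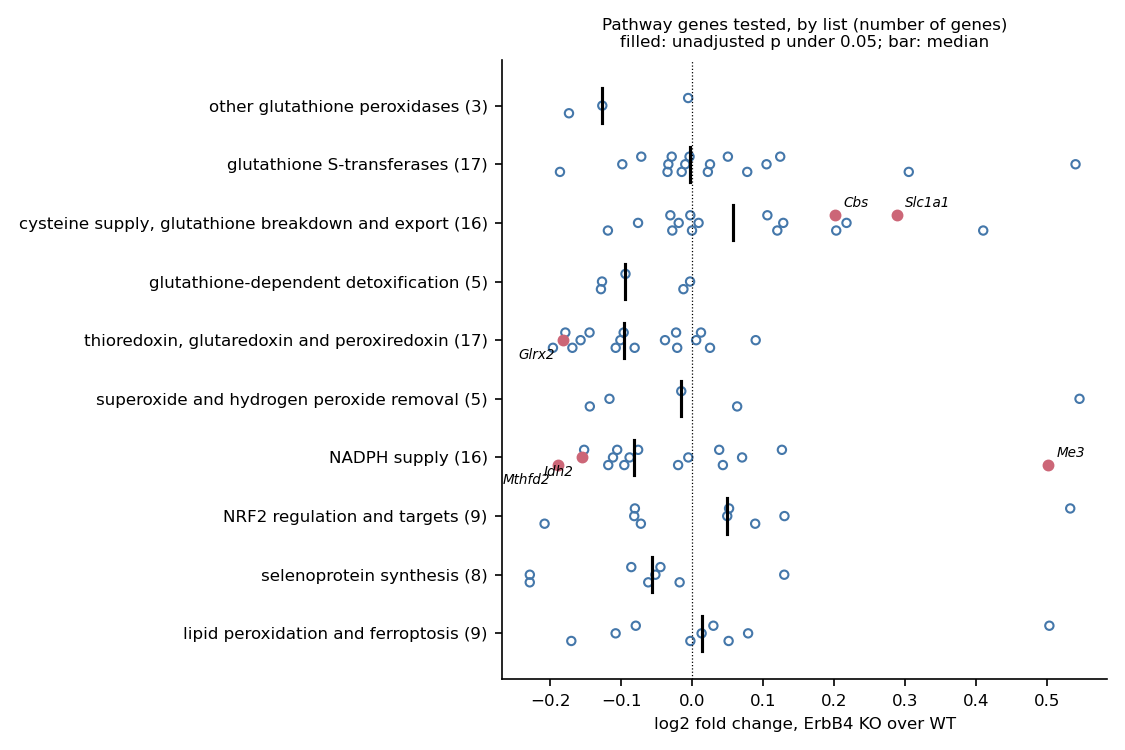
Each point is the log2 fold change (KO-labelled over WT-labelled libraries) of 1 of the 105 pathway genes tested, by list, with the list's median as a bar and the 6 genes at an unadjusted p under 0.05 filled and named. Most points lie within 0.3 of 0, and none of the genes passed after adjustment.

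Markers of the cell types in the dissection gave the cellular frame. The dorsal cortex was recognisable from projection neuron markers (summed 2762 to 3131 CPM in WT-labelled and 2690 to 3057 in KO-labelled libraries) and progenitor markers (1083 to 1291 against 1006 to 1229). All 7 progenitor markers had fold changes below 0 (-0.27 to -0.05, and -0.22 to -0.07 without WT replicate 1), beside 50.8% of all genes, and none passed after adjustment. Pax6 (-0.27, SE 0.081, unadjusted p 0.00626) and Nes (-0.23, SE 0.086, unadjusted p 0.0229) were below an unadjusted 0.05, beside 5.53% of all genes, each with an adjusted p of 0.81 by edgeR. Microglial (36.7 to 41.1 against 38.6 to 43.0) and endothelial sums (137 to 141 against 136 to 144) overlapped, as did the astroglial, interneuron and meningeal ones, the last with 21.1 CPM in 1 KO-labelled library. Within these lists, Gfap (1.04, SE 0.3, unadjusted p 0.00454) among astroglial and Ogn (1.85, SE 0.63, unadjusted p 0.0125) among meningeal markers had values above 0, each with an adjusted p of 0.81 by edgeR. Gfap was at 0.571 to 0.93 CPM in WT-labelled and 0.858 to 2.07 in KO-labelled libraries, and Ogn was at 7.58 CPM in KO replicate 3 and at 1.66 or less in the other 7 libraries. In bulk tissue, fewer cells of a type and less RNA per cell cannot be told apart, and the part of cell makeup in the levels above was not tested.

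The sizes of the differences under each way of processing are shown for the genes on which the description turns. Lancl1 stayed between -0.46 and -0.38 and Lancl2 between 0.04 and 0.25. The Lancl1 range is a description only, since these counts chose it. Gpx1 ranged from -0.22 to -0.06.

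**Figure D5:**
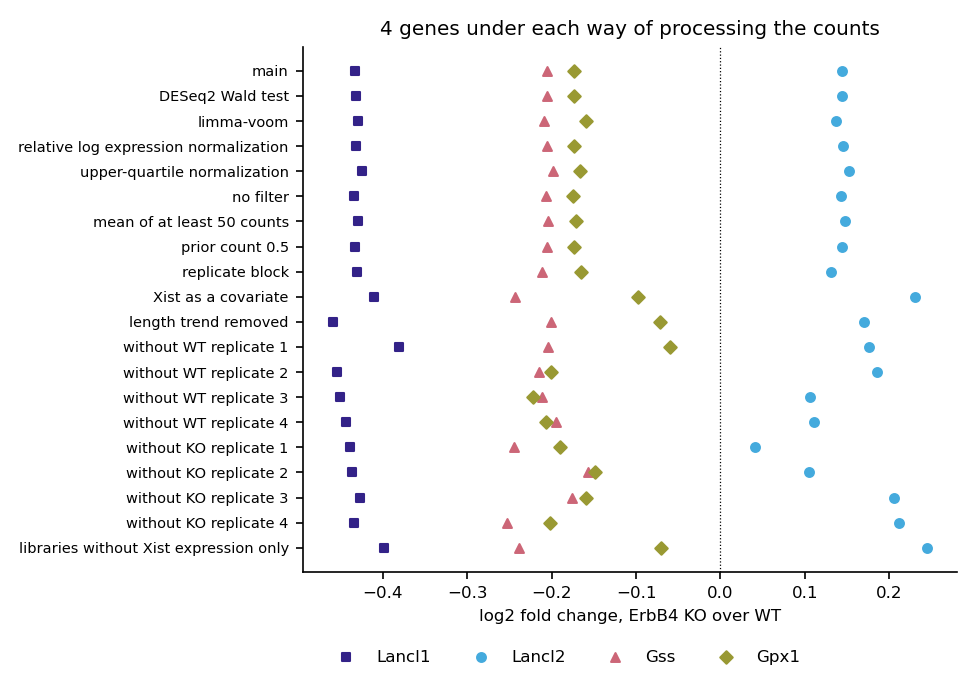
Each row is 1 way of processing the counts and each marker the log2 fold change of Lancl1, Lancl2, Gss or Gpx1 under it. The markers of Lancl1 (-0.46 to -0.38) and Gss (-0.25 to -0.16) stay in narrow bands. Lancl1 chose the set, so its band is a description only. The markers of Gpx1 move towards 0 without WT replicate 1, with the length trend removed and with Xist as a covariate. The row of libraries without Xist expression sets the KO-labelled libraries against WT replicate 4 alone.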

How the data were processed

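Total RNA of E15.5 dorsal cortex was sequenced by the authors as polyA-selected, non-strand-specific, single-end reads of 50 nt (RIN over 8). Mapping by the authors used HISAT on mm9 and counting used HTSeq-count, and the deposited files hold raw counts for each gene symbol. The gene annotation used is not given in the sources used here. A deposited DESeq2 table of fold changes and p-values was not used. The 9 members and all gene lists were chosen with earlier results of these data known.

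The test was the quasi-likelihood F test of edgeR 4.0.16 (R 4.3.3) after TMM scaling and filterByExpr (count at least 10, total at least 15), with Benjamini-Hochberg adjustment over 14696 genes at 0.05. Intervals are 95%. CPM are TMM-scaled, and log2 values carry a prior count of 2. Positions, exon lengths and sequences came from GENCODE vM1 on NCBIM37 (mm9), with coding sequences aligned in Biopython 1.88. Named genes are the members, Erbb4, Xist, Ddx3y, the 2 lowest and 2 highest fold changes and any call of each pathway list, tested genes within 1 Mb of Lancl1 and the 5 most like it. Slc7a11, Nfe2l2, Cbs, Cps1, Pax6, Nes, Gfap, Ogn, Hbb-y, Hba-x, Alas2 and Slc4a1, and genes too low to test, were named after their values were seen. Alternatives were DESeq2 1.42.0, limma-voom (limma 3.58.1), other normalizations and filters, a prior count of 0.5, a replicate block, Xist as a covariate, a length correction, a threshold of 0.1, each library left out, and, added later, only libraries without Xist expression and correlations without WT replicate 1. On simulated data with 200 genes changed by a log2 fold of 1, edgeR recovered 197 with 12 false calls among 14709 genes. The changed genes were drawn from well-counted ones, and no length trend or X and Y pattern was simulated. The members differed by less than that fold, and recovery of smaller changes was not tested. Depth was 28205703 to 48871480 counts per library, and the model includes counting error.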

Additional observations from a re-analysis of the deposited data

Results flagged for a closer look

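In 2 of the 20 groups of 4 libraries examined (9 members and Erbb4 in each genotype), 1 library was far from the others by Dixon's test at 95%, which chance alone gives in about 1 group in 20. Lancl1 in WT replicate 1 was at 116 CPM with the other 3 WT-labelled libraries at 99.8 to 102, a gap of 0.856 of the range. Gpx1 in WT replicate 1 was at 107 CPM with the others at 78.4 to 82.1, a gap of 0.87 of the range. Both are the same library, which stands apart over all genes, so they are not independent of each other. Their number is therefore not weighed against the chance rate. The group was also selected on the CPM of Lancl1, so the flag of Lancl1 is a description only.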

How the results depend on the processing

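Across 19 alternatives, 0 members other than Lancl1 and 0 pathway genes passed the threshold. The number of genes called over all genes tested was 4, and became 23 with DESeq2, 1 with relative log expression normalization, upper-quartile normalization or Xist as a covariate, 2 with the length trend removed, and 1 to 13 with 1 library left out (13 without WT replicate 4, 6 without WT replicate 1), and the cause was not tested. The members whose genotypes did not overlap numbered 2 (Gss, and Lancl1, chosen for this), beside 3.34% of all genes, and 2 to 4 with 1 library left out. The 4, without WT replicate 3, added Gpx1 and Gpx4, in a setting where 7.18% of all genes did not overlap. The replicate block left 1 gene called. Replicate numbers were not taken as pairs, since not every correlation was over 0.1: the deviations of same-numbered libraries correlated at 0.0236 to 0.135, and 5 of 8 libraries correlated best with their own number, a hint from the data and not from the design.

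Directions turned for some genes, none of which passed the threshold. With Xist as a covariate the log2 fold change became -0.0571 for Gclc, 0.256 for Gsr, 0.0989 for Gpx8, 0.38 for Gsto1, 0.0326 for Gstm7, 0.0448 for Glo1 and 0.0144 for Sod1. With the length trend removed it became 0.0774 for Gpx8, 0.0349 for Glo1, 0.0692 for Hagh, 0.00272 for Eefsec and -0.0241 for Mtap2, and with upper-quartile normalization 0.00249 for Gpx8, 0.00546 for Hagh and 0.00284 for 1110028C15Rik. With 1 library left out, values ran from -0.149 to 0.0714 for Gsr, -0.0883 to 0.0676 for Gpx8, -0.352 to 0.00527 for Gsto1, -0.146 to 0.00414 for Gstm7, -0.0797 to 0.0616 for Glo1, -0.0581 to 0.0255 for Hagh, -0.054 to 0.084 for Txnip, -0.0461 to 0.00953 for Eefsec, -0.00485 to 0.25 for Sepsecs, -0.284 to 0.124 for Ncoa4, -0.0208 to 0.0661 for Mtap2 and -0.0719 to 0.0296 for 1110028C15Rik. With only the libraries without Xist expression, an alternative added after seeing the data, the KO-labelled libraries were set against WT replicate 4 alone. This log2 ratio, which has no SE, was -0.0642 for Gclc and 0.29 for Gsr. WT replicate 4 was the lowest WT-labelled library for Gsr and the highest for Gclc. The members other than Gclc and Gsr kept their direction under every alternative run.

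With 4 libraries a genotype, changes smaller than the intervals given could not be seen, and a p above the threshold does not show that levels were equal. Colony and genotype coincide, the X and Y pattern differs between the groups except in WT replicate 4, and WT replicate 1 stands apart. Counts of Gpx4 miss reads with copies elsewhere if such reads were left out.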
